A study of Mus musculus with 6 samples.

Results

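The insulin-like growth factor (IGF) genes examined here were the ligands Igf1 and Igf2, the receptors Igf1r and Igf2r, and the binding proteins Igfbp2, Igfbp3, Igfbp4, Igfbp5, Igfbp6 and Igfbp7. They were chosen by gene symbol, and all 10 were found among the 23260 genes counted. The tissue was the embryonic submandibular gland (eSMG) of ICR mice at embryonic day 14, cultured for 6 h as control or with 50 µM AMD3100, a bicyclam that blocks the chemokine receptor CXCR4. No transgene or deletion is named for either group. Each of the 3 control and 3 AMD3100 libraries came from a tube of up to 10 eSMGs, and the study describes its experiments in general as independent and done in triplicate. The labels do not say what sets the tubes apart, so p-values measure only the spread between these libraries, which may be partly technical. The question was whether blocking CXCR4 changed RNA levels in the growing gland.

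IGF1 and IGF2 are secreted growth factors that act mainly through the tyrosine kinase receptor IGF1R. IGF2R, the cation-independent mannose 6-phosphate receptor, takes up IGF2 and delivers it to lysosomes. The binding proteins hold the ligands outside the cell, where proteases release them, and most also bind matrix or cell surfaces. IGF2 is the main ligand of the fetus, and its gene is imprinted, being read from the paternal copy, while the neighbouring H19 is read from the maternal copy.

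The kit used primes from the 3′ end, so that a transcript gives reads from its 3′ end whatever its length. Levels are therefore given as CPM, counts scaled to the TMM-normalized total of a library, were not divided by length, and were compared between genes on that scale. Library totals ran from 9051595 to 14393031 counts, and 3 counts, the floor used here, stood at 0.208 to 0.331 CPM. Of the counts of a library, 16.2% to 32.5% fell to the gene Rn45s. The floors and the intervals of read shares cover counting error only. The edgeR intervals of fold changes also carry the spread between libraries. All 10 genes were above the floor in every library, and all 10 passed edgeR's filter on low counts with 13610 genes in all. Epithelial and mesenchymal RNA was present in every library. Krt15, an epithelial keratin, stood between 888 and 2472 CPM, and Osr1, a transcription factor of the gland mesenchyme, between 140 and 184 CPM.

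Both libraries numbered 3 resembled each other more than any other pair of libraries did. Over the genes tested, no replicates of each other, control 3 and AMD3100 3 correlated in log2 CPM with r = 0.954, against 0.813 to 0.876 for either of them with the other 4 libraries and 0.831 to 0.902 among those 4. The pair was thus closely alike, while its distance from the rest overlapped the distances within the rest. Col3a1, a collagen of mesenchyme, was at 1403, 1421 and 406 CPM in control 1, 2 and 3 and at 1409, 1393 and 415 CPM in AMD3100 1, 2 and 3. Myog, a skeletal muscle transcription factor, ran the other way, at 41.1, 40.0 and 521 CPM in control and 13.9, 9.95 and 485 CPM in AMD3100. The libraries of replicate 3 thus held less of this collagen RNA and more of this muscle RNA in both groups. The part of tissue makeup in the values below was not tested, and values with replicates 1 and 2 only are also given for some results.

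Sequences around annotated starts of 4 of the genes are shown because these are the genes on which the results turn. Igfbp3 was the member past the unadjusted thresholds of the study, a call that did not hold after adjustment or without 1 of 4 libraries, and Igfbp2, Igfbp5 and Igf1r were the ones that differed most between the replicate numbers. Each is a RefSeq window on GRCm38.p6 from 250 bases before to 50 bases after an annotated start, 5′ to 3′ on the strand of the gene. Capitals mark the GC box GGGCGG, and the TATA box TATAAA and CCAAT box CCAAT were searched too, all on both strands.
Igfbp3, chr11:7213874-7214173, minus strand: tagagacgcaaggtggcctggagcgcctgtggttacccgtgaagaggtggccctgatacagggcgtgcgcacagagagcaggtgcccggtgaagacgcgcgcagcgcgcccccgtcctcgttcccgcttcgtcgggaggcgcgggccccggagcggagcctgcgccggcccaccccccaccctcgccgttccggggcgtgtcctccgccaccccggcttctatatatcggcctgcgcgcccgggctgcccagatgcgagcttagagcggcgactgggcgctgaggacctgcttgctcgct
Igfbp2, chr1:72824230-72824529, plus strand: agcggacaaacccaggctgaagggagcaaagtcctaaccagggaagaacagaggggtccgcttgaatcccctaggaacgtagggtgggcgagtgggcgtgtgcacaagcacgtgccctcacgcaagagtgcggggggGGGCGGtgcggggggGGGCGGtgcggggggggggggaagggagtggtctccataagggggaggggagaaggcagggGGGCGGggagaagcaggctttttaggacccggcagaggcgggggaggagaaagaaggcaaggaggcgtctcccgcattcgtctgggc
Igfbp5, chr1:72874816-72875115, minus strand: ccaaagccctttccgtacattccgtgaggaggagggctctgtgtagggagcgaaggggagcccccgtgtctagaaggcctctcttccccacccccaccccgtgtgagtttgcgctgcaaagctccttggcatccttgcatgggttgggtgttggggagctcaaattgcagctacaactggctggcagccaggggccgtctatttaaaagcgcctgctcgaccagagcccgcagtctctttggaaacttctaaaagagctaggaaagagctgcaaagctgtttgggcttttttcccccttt
Igf1r, chr7:67952007-67952306, plus strand: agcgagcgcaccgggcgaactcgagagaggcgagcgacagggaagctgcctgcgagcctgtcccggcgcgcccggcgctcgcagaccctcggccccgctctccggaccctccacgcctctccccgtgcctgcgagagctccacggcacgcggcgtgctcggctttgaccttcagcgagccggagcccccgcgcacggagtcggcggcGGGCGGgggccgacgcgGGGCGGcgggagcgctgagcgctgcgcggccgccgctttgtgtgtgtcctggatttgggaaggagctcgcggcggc
The Igfbp3 window begins inside the annotated gene, 1325 bases from its 5′ end, while the other 3 windows lie at the 5′ end of theirs. Igfbp2 has 2 annotated starts, and the window of the upstream one is shown. The shown Igfbp2 window held 3 GC boxes, at 113, 98 and 37 bases before the start, and the Igf1r window 2, at 43 and 26 bases before it. The Igfbp5 and Igfbp3 windows held none of the 3 motifs, and neither did the window of the downstream Igfbp2 start (chr1:72825137-72825436). Over all 32851 windows, 35.7% held a GC box, 13.6% a TATA box and 37.4% a CCAAT box. These are matches of letters and not mapped sites.

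Igf2 was by far the most abundant of the 10, with a mean of 1932 CPM over the 6 libraries, and ranked 27 among the 13610 genes tested. Igfbp4 followed at 576 CPM and Igf1 at 281 CPM. Igf2 was above Igfbp4, and Igfbp4 above Igf1, in 6 of 6 libraries with no overlap of their ranges. Below these the ranges of neighbours in the order overlapped. Igfbp5 had a mean of 272 CPM, Igfbp2 147 CPM, Igf1r 129 CPM, Igf2r 85.1 CPM, Igfbp7 49.3 CPM, Igfbp3 25.4 CPM and Igfbp6 11.1 CPM. With replicates 1 and 2 only this order changed, with Igfbp5 at 362 CPM above Igf1 at 272 CPM, and Igfbp2 at 90.3 CPM below Igf1r at 171 CPM and Igf2r at 106 CPM. Igfbp1, the binding protein best known from liver, was outside the 10 and had 4 counts in control 3, 2 counts in AMD3100 3 and 0 counts in each of the other 4 libraries.

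**Figure D1:**
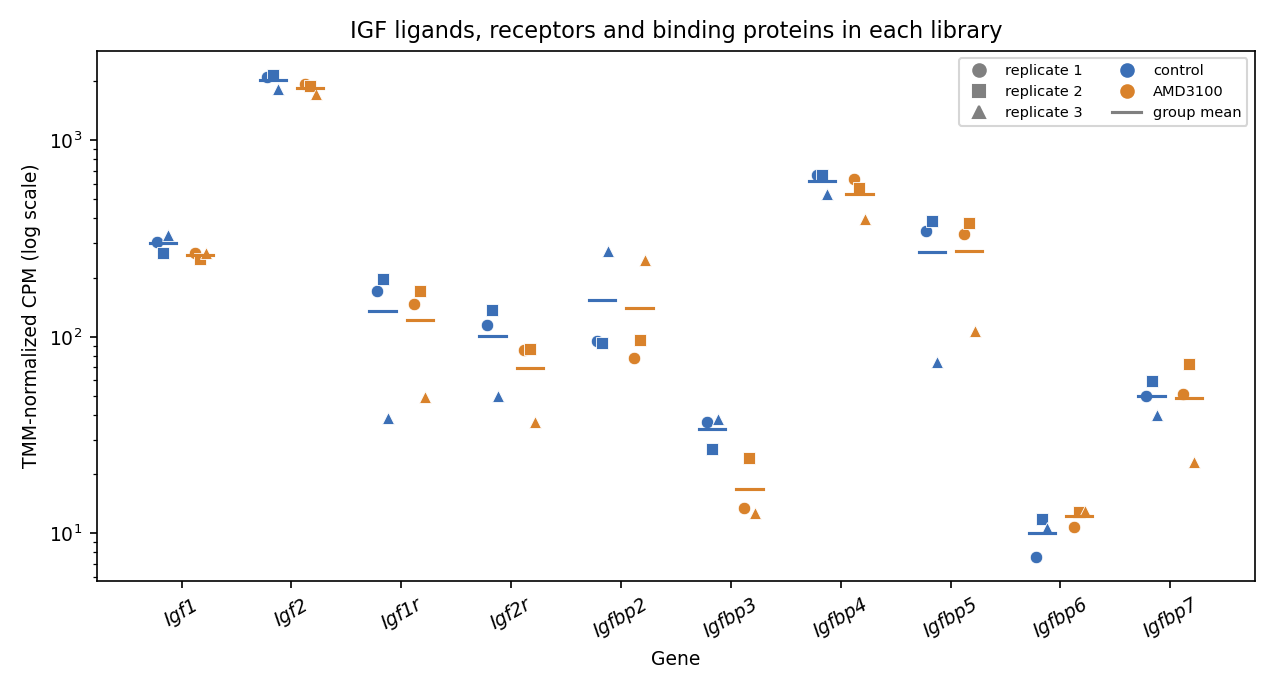
Level of each of the 10 genes in each library, in TMM-normalized CPM on a log axis, with control in blue, AMD3100 in orange, a symbol for each replicate number and a bar at each group mean. Igf2 lies at the top at 1714 to 2151 CPM, Igfbp3 is the gene with all AMD3100 points below all control points, and the triangles of replicate 3 sit apart for Igf1r, Igf2r, Igfbp2 and Igfbp5.

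AMD3100-treated eSMGs held less RNA of 1 of the 10 genes, Igfbp3, by the thresholds of the study, a fold change over 1.5 with an unadjusted p-value under 0.05. The other 9 did not pass, with fold changes from a log2 of -0.53 for Igf2r to 0.28 for Igfbp6. The log2 fold change was below 0 for 8 genes and above 0 for 2, with a median of -0.14, against a median of 0.02 over all genes tested. In edgeR's quasi-likelihood test 1.68% of all genes passed these thresholds, and 1.28% passed with lower values in AMD3100. After Benjamini-Hochberg adjustment edgeR called 0% of the genes and none of the 10, for each of which the adjusted p was 0.99998. DESeq2 called 5 genes, none of them among the 10. In edgeR 228 genes had an unadjusted p under 0.05, fewer than this cut gives when nothing changes. With replicate number as a block 907 genes did. The lack of calls without the block is therefore not evidence of no change. In these whole glands, fewer cells that express a gene and less of its RNA per cell cannot be told apart.

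The ligands differed little between the groups. Igf2 stood at 2092, 2151 and 1823 CPM in control 1, 2 and 3 and at 1927, 1882 and 1714 CPM in AMD3100 1, 2 and 3. The groups overlapped, since control 3 lay below AMD3100 1 and 2. The log2 fold change of Igf2 was -0.14 (SE 0.26, 95% interval -0.72 to 0.45). The interval excluded a change of 2-fold in either direction. Igf1 stood at 304, 267 and 331 CPM in control and at 268, 249 and 268 CPM in AMD3100. Control 2 fell within the AMD3100 range. Its log2 fold change was -0.20 (SE 0.26, 95% interval -0.79 to 0.39).

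The ratio of Igf2 to Igf1 in CPM was 6.87, 8.07 and 5.51 in control and 7.20, 7.56 and 6.40 in AMD3100. The AMD3100 values lay within the range of the control values. The sum of the 2 ligands over the sum of the 6 binding proteins ran from 1.94 to 2.23 in control and from 1.84 to 2.49 in AMD3100. In both groups replicate 3 had the highest value of this ratio.

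The receptors carried more spread than the ligands. Igf1r, the signalling receptor, stood at 171, 197 and 38.4 CPM in control and at 146, 172 and 49.4 CPM in AMD3100. The replicate 3 libraries were low in both groups and the groups overlapped. Its log2 fold change was -0.15 (SE 0.63), and its sign changed when control 1, control 2 or AMD3100 3 was left out, within a range of -0.59 to 0.23. The 95% interval of Igf1r was too wide to exclude a change of 2-fold in either direction.

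Igf2r, the receptor that clears IGF2, stood at 115, 136 and 49.8 CPM in control and at 85.6, 86.6 and 36.7 CPM in AMD3100. The groups overlapped through control 3, but each AMD3100 library was below the control of the same number, with changes of -25.8%, -36.5% and -26.2% in replicates 1, 2 and 3. The log2 fold change was -0.53 (SE 0.46, 95% interval -1.57 to 0.52). With replicate number as a block it was -0.51 with an SE of 0.15 (edgeR unadjusted p = 0.00916, adjusted p = 0.578), which was under the fold threshold. With replicates 1 and 2 only, where the groups did not overlap, it was -0.55 (edgeR unadjusted p = 0.0103, adjusted p = 0.767), again under the fold threshold. With 1 library left out it ran from -0.85 without control 3 to -0.23 without AMD3100 3, and it was -0.25 without control 2. Igf2r overlaps the antisense gene Airn on chromosome 17, which stood at 19.5, 28.7 and 5.39 CPM in control and 17.3, 37.1 and 9.09 CPM in AMD3100. Whether the counting used strand is not given in the sources used here. Without it, reads from the stretch that both genes share cannot be told apart. Whether that stretch holds the 3′ end of Igf2r, where the kit reads, was not examined.

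**Figure D2:**
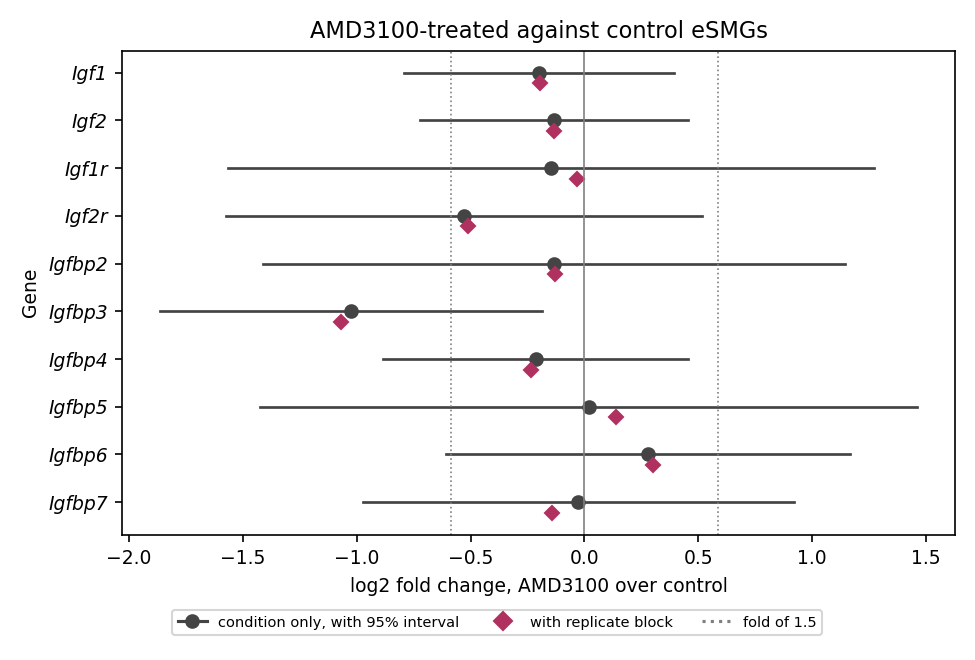
Log2 fold change of AMD3100-treated over control eSMGs for each of the 10 genes, with the edgeR estimate and its 95% interval (circles and lines), the estimate with replicate number as a block (diamonds) and dotted lines at a fold of 1.5. The interval of Igfbp3, from -1.86 to -0.18, is the one that lies wholly on one side of 0.

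Igfbp3, the main carrier of IGFs in serum, lies on chromosome 11 (7206086 to 7215498, minus strand). Its level was 36.9, 26.7 and 38.3 CPM in control 1, 2 and 3, from 422, 367 and 384 counts. In AMD3100 1, 2 and 3 it was 13.4, 24.1 and 12.6 CPM, from 233, 261 and 103 counts. All AMD3100 libraries lay below all control libraries, which held for 4.17% of all genes tested. The gap was narrow, however, between control 2 and AMD3100 2, and wide for the other libraries. The means were 34.0 ± 6.32 CPM in control and 16.7 ± 6.38 CPM in AMD3100 (SD, n = 3 each).

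The log2 fold change of Igfbp3 was -1.02 (SE 0.37, 95% interval -1.86 to -0.18, edgeR unadjusted p = 0.0222, adjusted p = 0.99998). An exact two-sided permutation test of its log2 CPM gave p = 0.1, the smallest that 3 libraries against 3 allow. Paired by number, Igfbp3 changed by -63.7%, -10.01% and -67.0% in replicates 1, 2 and 3. Its level was lower in AMD3100 under every alternative fit, with log2 fold changes from -1.38 to -0.78. It missed the threshold in edgeR when 1 of 4 libraries was left out, with an unadjusted p of 0.0576 without control 1, 0.0520 without control 3, 0.0807 without AMD3100 1 and 0.0621 without AMD3100 3. With replicates 1 and 2 only that p was 0.0713. Igfbp3 had been singled out earlier from these same libraries, so its direction here is not independent evidence.

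With replicate number as a block, the count of genes past the thresholds rose to 598, which is 4.39% of all genes, with 2.90% lower in AMD3100. Igfbp3 was again the 1 member among them, at a log2 fold change of -1.07 (SE 0.33, edgeR unadjusted p = 0.00959, adjusted p = 0.578). In that fit 0.0220% of genes, and none of the 10, had an adjusted p under 0.05. Together with Igf2r, 2 of the 10 genes had an unadjusted p under 0.05 there, as did 907 of all genes.

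Igfbp3 also took a smaller share of the reads of the 6 binding proteins. The share was 3.08%, 2.15% and 3.97% in control and 1.20%, 2.08% and 1.59% in AMD3100. The 95% Wilson intervals of control 2 (1.94% to 2.37%) and AMD3100 2 (1.85% to 2.35%) overlapped, while control 1 (2.81% to 3.39%) and control 3 (3.60% to 4.38%) lay above every AMD3100 interval. By the rule on pattern, the nearest genes to Igfbp3 over the 6 libraries were Fam58b, Syvn1 and Ccdc58, with root mean square differences of centred log2 CPM of 0.146, 0.202 and 0.215. For Igf2 they were Zcchc10 at 0.0254, Itm2a at 0.0349 and Brd8 at 0.0442. These were the smallest differences among 8245 genes with a mean of at least 10 CPM, and the libraries they share are the same 6.

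Endothelial RNA is given beside Igfbp3, since vessels are a cell type of the gland. The 12 endothelial markers summed to 90.6, 85.7 and 178 CPM in control and to 64.5, 126 and 120 CPM in AMD3100, with the groups overlapping. Of the 10 markers tested, 7 had lower and 3 higher values, and 0 passed the thresholds. Egfl7 was the most abundant, and none was at 0 in every library. Pecam1, an adhesion molecule of endothelium, was at 13.8, 8.96 and 14.1 CPM in control and at 1.498, 15.9 and 2.95 CPM in AMD3100. Within AMD3100, 5 of the 10 markers tested, Pecam1, Kdr, Tie1, Esam and Robo4, were highest in replicate 2, as Igfbp3 was. The other 5 were not, among them Egfl7 at 34.6, 65.5 and 94.1 CPM in AMD3100 1, 2 and 3. Tie1 and Robo4 had few counts there, at 5, 27 and 4 and at 16, 18 and 4. In the other lists, 5 of 10 macrophage, 5 of 15 epithelial, 4 of 13 mesenchymal and 3 of 9 erythroid markers were also highest in AMD3100 2. So were 1 of 7 neuronal, 1 of 5 glial, 1 of 4 cartilage and bone and 0 of 11 muscle markers. The share over all genes is not given here. The part of endothelial RNA in the Igfbp3 values was not tested.

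Among the other marker lists, the 13 mesenchymal markers summed to 4321, 4275 and 2086 CPM in control and to 4340, 4289 and 1830 CPM in AMD3100. The 15 epithelial markers summed to 2400, 2417 and 1621 CPM in control and to 2872, 2544 and 3637 CPM in AMD3100, with 10 markers higher and 5 lower. The largest single part of this sum was Krt15, at 1042, 1012 and 888 CPM in control and 1367, 1016 and 2472 CPM in AMD3100. All 9 erythroid markers had log2 fold changes below 0, and their sum was 7239, 19396 and 11326 CPM in control and 7003, 11008 and 11911 CPM in AMD3100. In the fit without the block no marker of these 3 lists passed the thresholds, and over all 9 lists the one that did was Fabp7, a lipid carrier of glia, lower in AMD3100 at a log2 fold change of -1.82 (edgeR unadjusted p = 0.0126). With the replicate block 4 more passed, namely the epithelial Krt15, higher at 0.62, and the mesenchymal Twist1 at -0.97 and the muscle genes Myog at -1.16 and Myod1 at -2.05, all 3 lower.

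The other 5 binding proteins did not pass the test. Igfbp4, a binding protein cut by the protease PAPP-A, stood at 662, 666 and 530 CPM in control and at 635, 570 and 396 CPM in AMD3100. Its log2 fold change was -0.21 (SE 0.30), with overlapping groups, and ran from -0.36 without AMD3100 1 to -0.05 without AMD3100 3. Igfbp6, which prefers IGF2, stood at 7.62, 11.9 and 10.7 CPM in control and at 10.8, 12.8 and 13.0 CPM in AMD3100. It was the one member higher in all 3 pairs, at a log2 fold change of 0.28 (SE 0.39), and control 2 lay within the AMD3100 range. The value fell to 0.11 without control 1, and its highest with 1 library left out was 0.42. Its pairs did not all point upward in CPM without TMM factors, but did with Rn45s left out of the totals.

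Igfbp7, a relative that binds IGFs weakly, stood at 49.99, 59.4 and 40.0 CPM in control and at 50.9, 72.6 and 23.1 CPM in AMD3100. AMD3100 held both its highest and its lowest library. Its log2 fold change was -0.03 (SE 0.42). With replicates 1 and 2 only it was 0.17, and with 1 library left out it ran from -0.42 to 0.30. Its gene overlaps Polr2b on chromosome 5, which had 809, 1238 and 510 counts in control and 1120, 915 and 300 counts in AMD3100, so that the same limit on strand holds as for Igf2r. That limit also holds for Igf2, which overlaps Igf2os. Igf2os had 425, 310 and 470 counts in control and 460, 308 and 455 counts in AMD3100.

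Of the 10 genes, 5 were lower in AMD3100 in all 3 pairs, namely Igf1, Igf2, Igf2r, Igfbp3 and Igfbp4, and 1, Igfbp6, was higher in all 3. Over all genes, 14.6% were lower and 15.7% higher in all 3 pairs. Without TMM factors the members lower in all 3 pairs were 3, Igf2r, Igfbp2 and Igfbp3, against 11.3% of all genes. Igf1, Igf2 and Igfbp4 were no longer among them. With Rn45s left out of the totals, the same 5 members as with TMM factors were lower, and Igfbp6 was higher, in all 3 pairs. The share of all genes on that scale is not given here. This count of pairs was chosen after the values were seen. It also rests on the numbers in the labels, since the check on pairing did not separate replicates 1 and 2.

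For Igfbp5, Igfbp2, Igf1r and Igf2r the differences between replicate numbers were larger than those between conditions, unlike for Igfbp3. In edgeR's test of the replicate-number terms, chosen after seeing the data, 4 of the 10 genes had an adjusted p under 0.05, namely Igfbp5, Igfbp2, Igf1r and Igf2r, against 17.8% of all genes. The adjusted p was 0.000315 for Igfbp5, 0.000426 for Igfbp2, 0.000494 for Igf1r and 0.00287 for Igf2r. It was 0.0694 for Igfbp4 and 0.0713 for Igfbp7, and between 0.395 and 0.894 for Igf2, Igf1, Igfbp6 and Igfbp3. With only the genes that had at least 10 counts in every library, 6 of the 10 were under 0.05, with Igfbp4 at 0.0326 and Igfbp7 at 0.0266 among them. The 17.8% belongs to the main filter, and the share of all genes under this stricter filter is not given here. The count of 6 therefore has no background to be read against. What the numbers stand for is not given in the sources used here, so age, dissection or library preparation cannot be told apart as their source.

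Igfbp5, a binding protein that attaches to matrix, stood at 346, 390 and 74.2 CPM in control and at 333, 380 and 107 CPM in AMD3100. Replicate 3 was 4.96-fold below the mean of replicates 1 and 2 in control and 3.33-fold below in AMD3100. Between conditions its log2 fold change was 0.02 (SE 0.64), and it was -0.05 with replicates 1 and 2 only. With 1 library left out it ran from -0.43 to 0.39. Igf1r, by the same measure, was 4.80-fold lower in replicate 3 of control and 3.22-fold lower in replicate 3 of AMD3100. Igf2r was 2.53-fold and 2.34-fold lower there.

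Igfbp2, a binding protein with an integrin-binding motif, went the other way. It stood at 95.4, 92.4 and 272 CPM in control and at 77.5, 96.0 and 246 CPM in AMD3100, so that replicate 3 was 2.90-fold higher in control and 2.83-fold higher in AMD3100. Between conditions its log2 fold change was -0.13 (SE 0.56). The sign changed without control 3 (0.59), AMD3100 1 (0.16) or AMD3100 2 (0.08), and the value was -0.84 without AMD3100 3. The ratio of Igfbp5 to Igfbp2 in CPM was 3.63, 4.22 and 0.273 in control and 4.29, 3.97 and 0.436 in AMD3100. It was thus above 1 in all libraries of replicates 1 and 2 and below 1 in both of replicate 3.

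**Figure D3:**
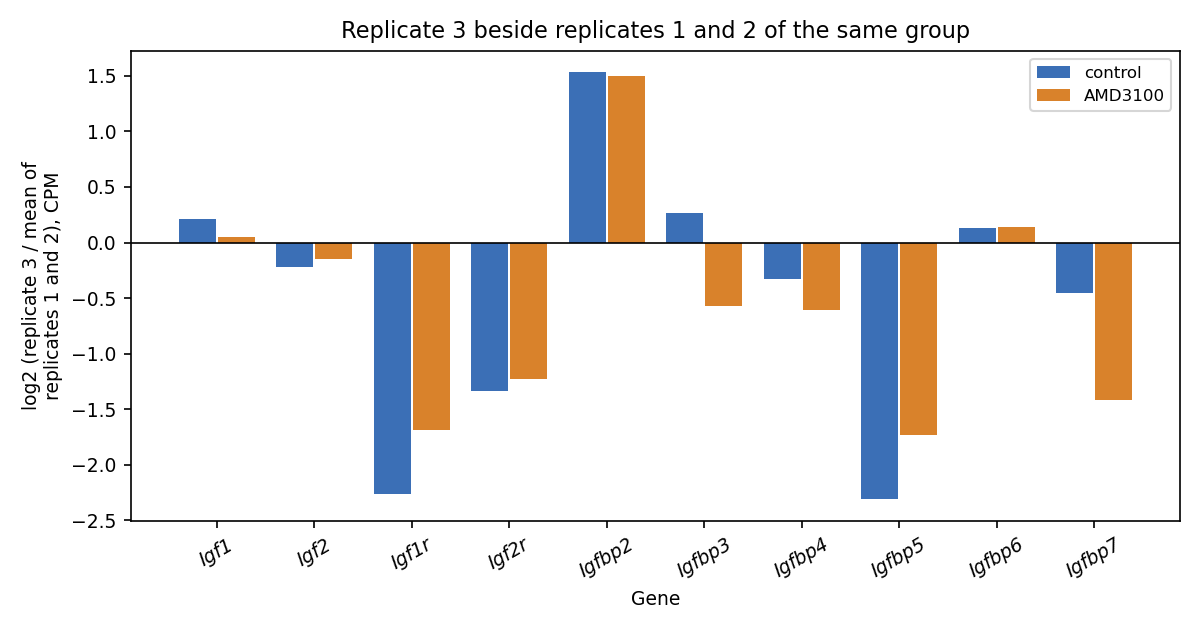
Log2 ratio of the CPM in replicate 3 to the mean CPM of replicates 1 and 2, for each gene, with control in blue and AMD3100 in orange. Igfbp5, Igf1r and Igf2r are low and Igfbp2 is high in replicate 3 of both groups, while Igfbp3 lies on opposite sides of 0 in the 2 groups.

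Igfbp2 and Igfbp5, which took opposite courses, are neighbours on chromosome 1, where Igfbp2 spans 72824480 to 72852474 on the plus strand and Igfbp5 72858065 to 72874865 on the minus strand (GRCm38.p6). Their 3′ ends face each other 5590 bases apart with no annotated gene between them. Igf1r, on chromosome 7, was the gene nearest in pattern to Igfbp5, and Igfbp5 the nearest to Igf1r, with a root mean square difference of 0.0887 over the 6 libraries. This pair was named after its values were seen, and both of its genes are low in the same 2 libraries.

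Marker sums also moved with the replicate number. The 11 skeletal muscle markers summed to 324, 346 and 1387 CPM in control and to 228, 178 and 1927 CPM in AMD3100, and 9 of them were highest in replicate 3 of both groups. The 6 glial markers summed to 66.5, 68.5 and 209 CPM in control and to 59.0, 78.7 and 147 CPM in AMD3100, with S100b the most abundant. Of the 5 glial markers tested, 3 were highest in replicate 3 of both groups. The cartilage and bone sum went the other way, at 53.8, 54.6 and 12.1 CPM in control and 43.5, 45.7 and 12.9 CPM in AMD3100. Of the 4 such markers tested, 3 were lowest in replicate 3 of both groups. The mesenchymal sum given above was also low there, with 5 of its 13 markers lowest in replicate 3 of both groups. Of the 15 epithelial markers 9 were lowest in replicate 3 of both groups. The sum of the 15, with Krt15 as its largest single part, was highest in AMD3100 3.

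The macrophage sum was 134, 108 and 296 CPM in control and 128, 142 and 206 CPM in AMD3100, but this was not shared across its list. Of its 10 markers 3 were highest in replicate 3 of both groups, namely C1qa, Lyz2 and Cd68, and 2, Fcer1g and Adgre1, were lowest there. C1qa, a complement gene and the most abundant of them, stood at 15.8, 14.0 and 123 CPM in control and at 23.0, 18.5 and 95.05 CPM in AMD3100. The part of these cell types in the levels of Igfbp5, Igfbp2, Igf1r and Igf2r was not tested.

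The makeup of the binding protein reads showed the same split. Igfbp4 took 55.2%, 53.4% and 54.9% of them in control and 56.7%, 49.3% and 49.6% in AMD3100, the largest share in every library. Igfbp5 was second in replicates 1 and 2, with 28.9% and 31.3% in control and 29.7% and 32.9% in AMD3100. In replicate 3 it fell to 7.69% in control and 13.4% in AMD3100, and Igfbp2 was second there with 28.2% and 30.8%. In replicates 1 and 2 Igfbp2 took 7.96% and 7.42% in control and 6.92% and 8.30% in AMD3100. Igfbp7 took from 2.90% to 6.29% and Igfbp6 from 0.636% to 1.63% across the libraries.

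**Figure D4:**
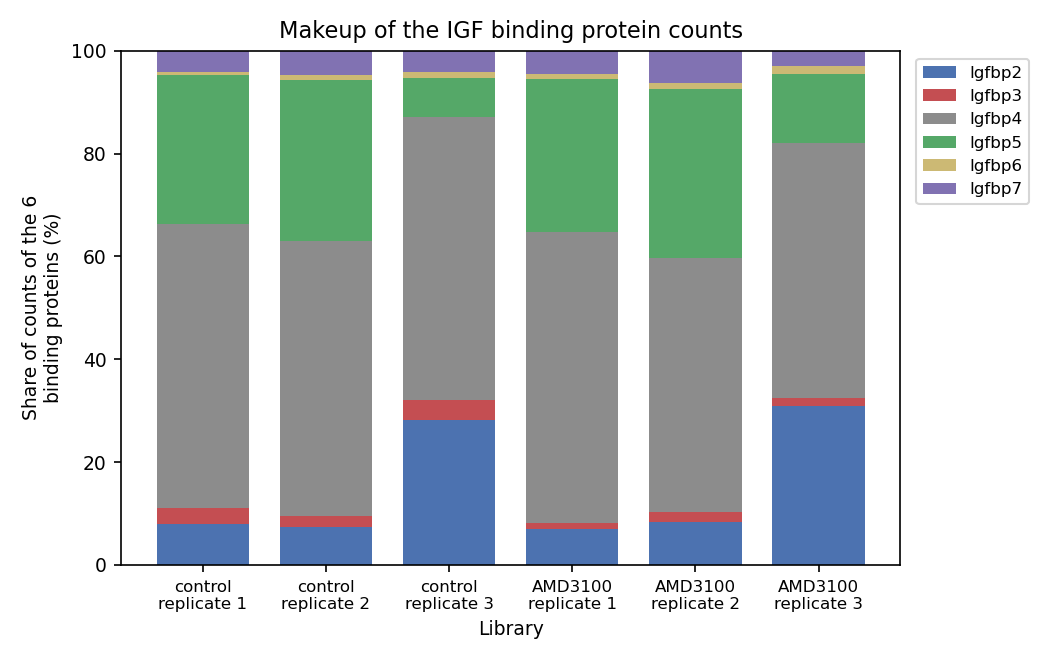
Share of each binding protein in the summed counts of the 6 binding proteins, in percent, for each of the 6 libraries. Igfbp4 fills 49.3% to 56.7% of every bar, and Igfbp2 and Igfbp5 trade places between replicate 3 and the other libraries in both groups.

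Around these genes, 48 others were listed as relatives, proteases, adaptors, kinases, RNA binding proteins, imprinted neighbours and upstream regulators, of which 41 passed the filter on low counts. None passed the thresholds, 24 had higher and 17 lower values in AMD3100, and the median log2 fold change was 0.06. The kinases had 7 higher and 3 lower of 10, the adaptors and inhibitors 4 higher and 7 lower of 11, and the proteases and their inhibitors 5 higher and 3 lower of 8. With the replicate block 2 genes passed, Socs3 and Ghr, both lower, out of the 4.39% of all genes that did.

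Socs3, an inhibitor of cytokine and insulin receptor signalling, stood at 33.1, 33.4 and 9.37 CPM in control and at 11.6, 17.97 and 1.72 CPM in AMD3100. It was lower in each of the 3 pairs, while the groups overlapped through control 3. Its log2 fold change was -1.27 (SE 0.77), and -1.54 with the replicate block (edgeR unadjusted p = 0.00192, adjusted p = 0.339). With 1 library left out it ran from -1.90 without AMD3100 2 to -0.79 without AMD3100 3. Ghr, the growth hormone receptor that drives Igf1 in liver, stood at 23.9, 28.2 and 20.5 CPM in control and at 12.8, 9.40 and 20.5 CPM in AMD3100, with AMD3100 3 at the level of control 3. Its log2 fold change was -0.77, and -0.83 with the block (edgeR unadjusted p = 0.0422, adjusted p = 0.730). With replicates 1 and 2 only the value for Ghr was -1.23. Htra1, a secreted protease that cuts IGF binding proteins, stood at 14.4, 28.5 and 20.3 CPM in control and at 26.9, 36.8 and 27.6 CPM in AMD3100. It was higher in each pair, at a log2 fold change of 0.53 (SE 0.36), with a range of 0.31 without control 1 to 0.81 without control 2.

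The 3 most abundant genes of the list were H19, Plagl1 and Ctsd. H19, the noncoding neighbour of Igf2, stood at 26096, 24611 and 9269 CPM in control and at 26059, 25906 and 11382 CPM in AMD3100. It was thus low in replicate 3 of both groups, where Igf2 was 1.16-fold lower in control and 1.11-fold lower in AMD3100. Plagl1, a zinc finger regulator of imprinted genes, had a log2 fold change of 0.22 between conditions, which was 0.06 without AMD3100 2 and 0.08 without control 3. Ctsd, the lysosomal protease cathepsin D, stood at 330, 308 and 708 CPM in control and at 286, 314 and 799 CPM in AMD3100. Of the 41 genes tested, 12 had an adjusted p under 0.05 for the replicate-number terms, against 17.8% of all genes. Akt1 and Akt2, kinases downstream of the receptors and named after their values were seen, took opposite courses there. Akt1 stood at 365, 478 and 85.7 CPM in control and 360, 336 and 67.8 CPM in AMD3100, and Akt2 at 97.3, 108 and 247 CPM in control and 87.0, 83.3 and 231 CPM in AMD3100.

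**Figure D5:**
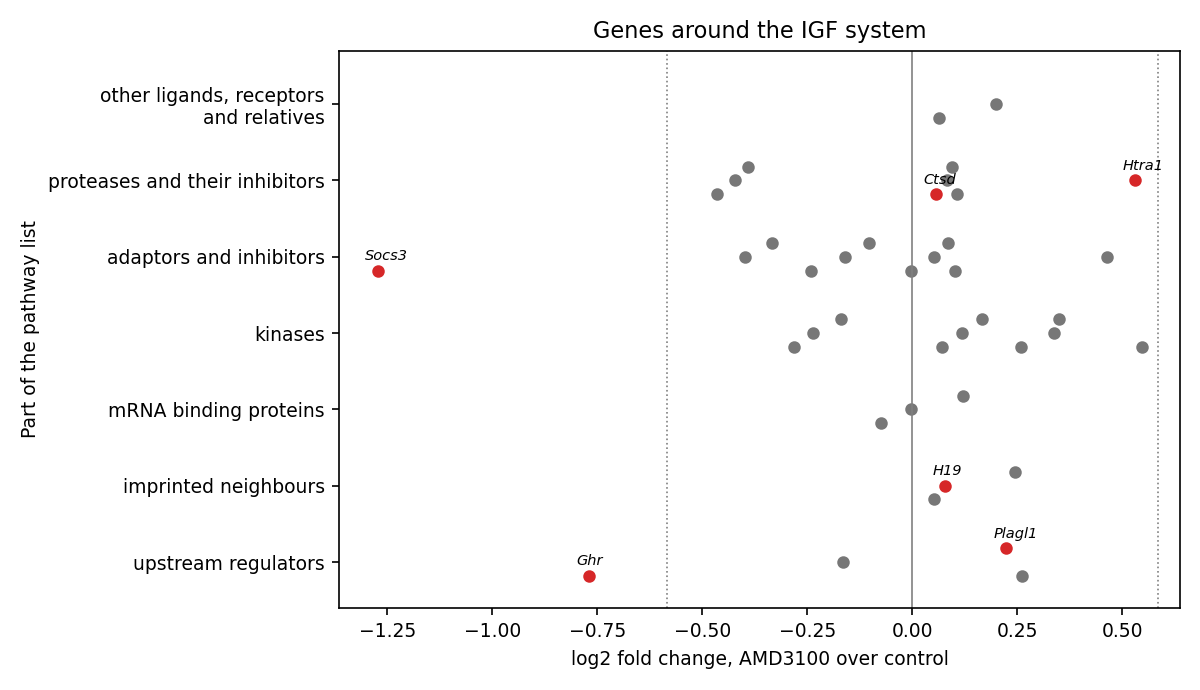
Log2 fold change of AMD3100-treated over control eSMGs for the 41 listed genes that were tested, by part of the list, with the 6 genes named by rule in red and dotted lines at a fold of 1.5. Socs3 and Ghr lie left of the dotted line and no gene lies right of the other.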

How the data were processed

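Whole eSMGs were profiled in 6 libraries, 3 control and 3 AMD3100, grouped by their labels. Per library, the authors deposited raw read counts for each gene symbol, from 50 bp single reads. The submitters' processing notes name Bowtie2, edgeR and mm10, without versions or roles, and the annotation is not given in the sources used here. No molecular identifiers are mentioned. Of 23282 lines per library, 44 repeated a symbol, and the 22 with equal counts were left out.

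Counts were compared with edgeR 4.0.16 in R 4.3.3 (TMM, filterByExpr, glmQLFit, glmQLFTest, condition as the only term, Benjamini-Hochberg adjustment over all 13610 genes). The biological coefficient of variation was 0.579. Thresholds were a fold of 1.5 and an unadjusted p of 0.05. The study's procedure was approximated by quantile normalization in limma 3.58.1 followed by an unadjusted equal-variance test for each gene. DESeq2 was 1.42.0. The script was tested on simulated counts with planted changes larger than that of Igfbp3 and no difference between replicate numbers. That test does not show how well changes of the size seen here would be found in these libraries.

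Both groups share replicate numbers in the labels. Deviations from the group means correlated at 0.185, 0.171 and 0.584 for the pairs numbered 1, 2 and 3. The crossed pairs of 1 and 2 gave 0.198 and 0.146. Deviations from a mean of 3 libraries cancel out within a group. A match of the replicate 3 libraries alone can thus make libraries 1 and 2 of both groups correlate. The check therefore cannot tell whether 1 goes with 1 and 2 with 2. The numbers were taken as pairs, and for 1 and 2 this rests on the labels alone.

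The genes named were all 10 members, the 3 most abundant genes and the 3 of lowest unadjusted p of the pathway list, any past the thresholds, and the 3 nearest in pattern to Igf2 and Igfbp3. Members and lists were chosen with earlier results of these data known. Positions and upstream windows are from RefSeq on GRCm38.p6, to which all 10 members were matched. Protein sequences were not used here.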

Additional observations from a re-analysis of the deposited data

How the results depend on the processing

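Of 160 member fold changes under alternatives, 146 kept their direction, and those of 6 members never reversed. The member signs that reversed belonged to Igf1r (leave-one-out range -0.59 to 0.23), Igfbp2 (-0.84 to 0.59), Igfbp5 (-0.43 to 0.39, -0.027 by the study's procedure and -0.053 with replicates 1 and 2 only), Igfbp7 (-0.42 to 0.30, and 0.17 with replicates 1 and 2 only), and, of the 6 pathway genes named by rule, H19 (-0.26 to 0.37) and Ctsd (-0.60 to 0.56, -0.058 with limma-voom, -0.00053 with the replicate block, -0.0092 by the study's procedure and -0.094 with replicates 1 and 2 only). The count of genes past the fold and unadjusted p thresholds was 598 with the replicate block, 429 by the study's procedure, 613 with replicates 1 and 2 only and 163 to 547 with 1 library left out, the highest without control 3 (547) and AMD3100 3 (451). Adjusted calls numbered 5 with DESeq2 and 3 with the replicate block, against 0. Among the 10 members the count past the thresholds was 0 with replicates 1 and 2 only and 0 to 1 with 1 library left out, being 0 without control 1, control 3, AMD3100 1 or AMD3100 3. In the pathway list it was 2 with the replicate block, 2 with replicates 1 and 2 only and 0 to 1 with 1 library left out, being 1 without control 3, AMD3100 1 or AMD3100 3. With the replicate block 6 of the 41 pathway genes tested changed sign, and 4 markers passed the thresholds that had not without it (Krt15, Twist1, Myog and Myod1). No call on the 10 members changed with the block. Members lower in all 3 pairs numbered 3 without TMM factors. In all these the cause was not tested. With 1 library left out, Igf1 ran from -0.28 to -0.12, Igf2 from -0.20 to -0.09 and Ghr from -1.13 to -0.53. Leaving Rn45s, with 16.2% to 32.5% of the counts, out of the totals raises the CPM of every gene by arithmetic. It moved the mean levels of 5 of the 10 members (Igf1, Igf2, Igfbp4, Igfbp6 and Igfbp7) by more than their SD. Which members did so depends on the size of their SD beside their mean. The mean levels of the other 5 stayed within the SD, as did all 10 without TMM factors and with replicates 1 and 2 only.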
